A study of Homo sapiens with 6 samples.

Results

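HMGCS1, SQLE, INSIG1, SREBF2, FDFT1, LSS, EBP and DHCR7 are 8 genes of cholesterol synthesis and its control. They were taken by symbol from 23228 genes counted in MDA-MB-231, an established human cell line of triple-negative breast cancer. All 8 were found, and all 8 passed the filter on low counts, as did 13606 genes in total. Lentivirus had brought a short hairpin RNA (shRNA) into the cells, a scrambled one in 3 libraries and one against SCUBE3 in the other 3, and both groups were selected with puromycin. SCUBE3 encodes a secreted protein, and the study's title places it in oncogenic signalling and anti-tumour immunity. The comparison asks which transcripts differ between the groups. The labels do not say how many shRNA sequences or cultures were used, so p-values reflect the spread among these 6 libraries alone, and this spread may be technical.

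Cells build cholesterol from acetyl-CoA. The early enzymes make mevalonate and then squalene, SQLE oxidises squalene to squalene epoxide, LSS closes the epoxide into lanosterol, and the late enzymes trim lanosterol to cholesterol. The transcription factor SREBP-2, the product of SREBF2, switches on genes of this chain when sterol in the endoplasmic reticulum is low, and INSIG proteins hold it back there when sterol is plentiful. Cells also take up cholesterol in lipoproteins, release it in the lysosome, store it as esters and export it.

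SCUBE3 RNA did not pass the test between the groups. SCUBE3 reads numbered 96, 91 and 80 in the scramble libraries against 99, 107 and 101 under the knockdown label (log2 fold change 0.03, standard error (SE) 0.14, 95% interval -0.26 to 0.31). The groups are therefore called scramble and "labelled knockdown", and every direction is that of the labels. Reads in genes ran from 21348509 to 25520901 per library, and the groups differed across most of the transcriptome: with edgeR's quasi-likelihood test and an adjusted p threshold of 0.05, 85.9% of tested genes passed, of which the genes higher in labelled knockdown were 43.4% of those tested and the lower ones 42.5%. VIM, CD44, AXL and EGFR, which this line is known to express, had group means from 220 CPM upward, and CDKN2B and MTAP, known as deleted in it, had 0 reads. Of 5 genes known as low or absent in it, ESR1 and PGR had group means of at most 0.982 CPM. The other 3 were read: GATA3 had 5.91 CPM in scramble and 15.5 in labelled knockdown, ERBB3 12.2 and 5.86, and CDH1 0.0458 and 2.01. CPM are read counts scaled by library size and by TMM, edgeR's trimmed mean factor, to counts per 1000000 reads. Markers of other cell types were mostly at or near 0, among them ALB, TTR, STAR, CYP17A1, PTPRC and DCN. The exceptions moved with the groups. The summed CPM of 5 hepatocyte markers ran from 10.3 to 11.9 in scramble and from 90.1 to 96.0 in labelled knockdown, nearly all of it SERPINA1, and that of 5 immune markers from 283 to 291 and from 153 to 164, nearly all of it CD68. That of 5 fibroblast and endothelial markers ran from 1.98 to 2.99 and from 13.8 to 14.8, mostly PDGFRB, and that of 4 steroidogenic markers from 1.66 to 2.15 and from 0.681 to 0.930. Their part in the results was not tested.

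The 5′ flanks of the members are shown because the genes are known as targets of a common set of factors and yet moved in opposite directions in these libraries. Of the members, 6 had an entry in RefSeq's promoter table (build GRCh38.p14), with windows from 250 bases before to 50 bases after the gene start; SQLE and FDFT1 had none. The letters searched, on both strands, were TCACNCCAC, a form of the sterol regulatory element bound by SREBPs, ATTGG, the core bound by NF-Y, and GGGCGG, the GC box bound by Sp1. Capitals mark these matches, written as they read on the gene's strand, so that ATTGG may appear as CCAAT. Only the stretch free of the gene's own GENCODE v29 exons is printed, and none of EBP's flank was free of them.
SREBF2, chr22:41832855-41833078, plus strand: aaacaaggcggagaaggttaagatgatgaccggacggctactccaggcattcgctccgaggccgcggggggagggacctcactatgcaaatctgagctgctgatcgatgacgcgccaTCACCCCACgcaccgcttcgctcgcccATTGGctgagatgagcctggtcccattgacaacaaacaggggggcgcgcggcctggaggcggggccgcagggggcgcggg
HMGCS1, chr5:43313513-43313662, minus strand: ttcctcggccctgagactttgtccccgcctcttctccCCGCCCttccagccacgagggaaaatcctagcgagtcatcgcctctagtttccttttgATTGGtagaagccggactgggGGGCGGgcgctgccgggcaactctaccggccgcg
INSIG1, chr7:155297628-155297775, plus strand: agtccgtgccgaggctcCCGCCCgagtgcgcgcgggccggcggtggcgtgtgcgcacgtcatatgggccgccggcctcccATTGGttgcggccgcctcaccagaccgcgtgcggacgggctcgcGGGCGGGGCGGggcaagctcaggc
LSS, chr21:46228825-46229024, minus strand: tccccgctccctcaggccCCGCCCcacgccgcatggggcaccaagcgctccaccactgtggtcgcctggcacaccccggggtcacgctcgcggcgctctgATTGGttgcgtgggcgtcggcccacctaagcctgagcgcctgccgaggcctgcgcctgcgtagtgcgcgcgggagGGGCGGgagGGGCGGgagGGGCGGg
DHCR7, chr11:71448436-71448643, minus strand: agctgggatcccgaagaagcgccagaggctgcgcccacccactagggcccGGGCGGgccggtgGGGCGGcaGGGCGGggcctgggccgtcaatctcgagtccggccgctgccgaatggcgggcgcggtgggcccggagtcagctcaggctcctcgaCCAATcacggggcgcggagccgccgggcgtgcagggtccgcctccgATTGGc
The only member with a TCACNCCAC match was SREBF2 (TCACCCCAC from position -133), where 1.13% of all 35116 promoters of this length hold one. All 6 genes held at least 1 ATTGG, against 34.6% of all promoters, and at least 1 GGGCGG, against 45% (HMGCS1 and DHCR7 have 2 entries each and so more chances). EBP held 3 ATTGG, at -191, -70 and -30. HMGCS1 and the members that rose all held both. HMGCS1 was the only member with an entry that fell, so these flanks cannot set falling members against rising ones. A match is a description and not a site. Of 12 other synthesis enzyme genes in the table, 9 held ATTGG and 10 GGGCGG.

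The 8 genes split by direction. INSIG1, SREBF2, LSS, EBP and DHCR7 rose in labelled knockdown and HMGCS1, SQLE and FDFT1 fell. All 8 passed the test and none overlapped between groups, but 85.9% of all tested genes passed and 85.8% did not overlap, so the count itself sets the members apart in neither respect. Their log2 fold changes ran from -0.89 to 1.32 with a median of 0.49, beside a median of 0.01 over all tested genes. The median size of change over all tested genes, in either direction, was 0.64. In bulk RNA, fewer cells of a type and less RNA per cell cannot be told apart.

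SREBF2, the regulator, changed least of the 8. SREBF2 had 109, 126 and 122 CPM in scramble libraries 1 to 3 and 145, 145 and 142 in labelled knockdown. The lowest labelled knockdown library lay above the highest scramble library, and scramble replicate 1 stood lowest. The means were 119 ± 8.50 and 144 ± 1.66 CPM (SD, n = 3), and the log2 fold change was 0.28 with an SE of 0.04 (edgeR adjusted p = 6.40e-08). That is a change of 21.5%, with 24.4% of tested genes changed as little or less, and it did not pass when tested against a 1.5-fold change (edgeR glmTreat, adjusted p = 1). The messenger RNA level does not measure SREBP-2 protein or its cleavage.

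INSIG1, which retains the SREBP escort protein SCAP in the endoplasmic reticulum and is itself an SREBP target, rose 1.90-fold. INSIG1 had 67.7, 70.9 and 67.9 CPM in scramble and 132, 137 and 123 in labelled knockdown. The means of 68.8 ± 1.78 and 131 ± 7.09 CPM (SD, n = 3) gave a log2 fold change of 0.93 with an SE of 0.04 (edgeR adjusted p = 3.71e-22), and the groups lay far apart.

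**Figure D1:**
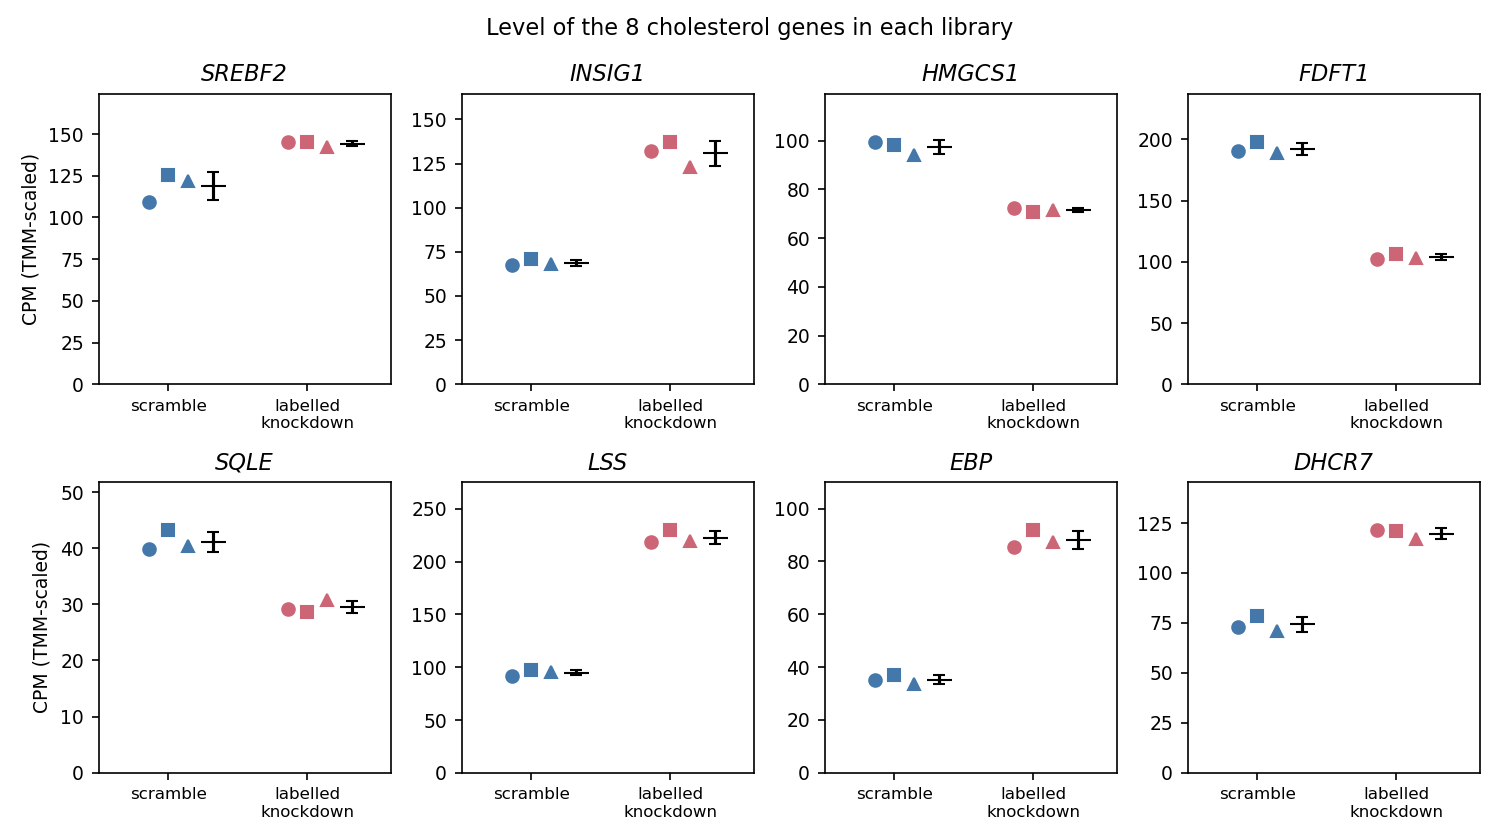
CPM of each of the 8 genes (vertical axes start at 0 and differ in range) in scramble (blue) and labelled knockdown (red) libraries; circles, squares and triangles are replicates 1, 2 and 3, and black marks are means ± SD (n = 3). HMGCS1, FDFT1 and SQLE are lower and the other 5 higher in labelled knockdown, with no overlap between groups.

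HMGCS1, FDFT1 and SQLE, the members that act before the sterol ring is closed, fell. HMGCS1 makes HMG-CoA, the precursor of mevalonate. It had 99.5, 98.4 and 94.1 CPM in scramble and 72.5, 70.7 and 71.4 in labelled knockdown, a log2 fold change of -0.44 with an SE of 0.04 (edgeR adjusted p = 1.44e-12). The libraries of each group lay close together and the gap between groups was wider than either spread.

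FDFT1, squalene synthase, which commits farnesyl units to sterols, fell most. FDFT1 had 190.4, 198 and 189 CPM in scramble and 103, 107 and 103 in labelled knockdown. The means of 192 ± 4.83 and 104 ± 2.23 CPM (SD, n = 3) mean that FDFT1 fell by 45.9% (log2 fold change -0.89, SE 0.04, edgeR adjusted p = 7.46e-24). SQLE, squalene epoxidase, a known slow step of the chain, had 39.9, 43.2 and 40.4 CPM in scramble and 29.2, 28.7 and 30.8 in labelled knockdown. Its log2 fold change was -0.48 with an SE of 0.06 (edgeR adjusted p = 6.94e-10). HMGCS1 and SQLE did not pass against a 1.5-fold change (edgeR glmTreat, adjusted p = 1 for each), while FDFT1 did, as did 21.6% of all tested genes on the lower side and 24.3% on the higher.

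LSS, EBP and DHCR7, which act from ring closure onward, rose. LSS, lanosterol synthase, had 92.1, 97.1 and 95.6 CPM in scramble and 218, 229.6 and 219.9 in labelled knockdown. The means were 94.9 ± 2.57 and 223 ± 6.08 CPM (SD, n = 3), a 2.35-fold difference (log2 fold change 1.23, SE 0.04, edgeR adjusted p = 1.80e-28), the smallest adjusted p among the 8. No library of one group came near the other group.

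EBP, the sterol isomerase that moves a ring double bond, had the largest rise. EBP had 35.1, 37.0 and 33.6 CPM in scramble and 85.4, 91.7 and 87.2 in labelled knockdown, a 2.50-fold difference (log2 fold change 1.32, SE 0.05, edgeR adjusted p = 4.33e-25). Its change was larger in size than that of 78.8% of tested genes. DHCR7, the reductase that turns 7-dehydrocholesterol into cholesterol, had 73.2, 78.6 and 70.9 CPM in scramble and 121, 121 and 117 in labelled knockdown (log2 fold change 0.69, SE 0.04, edgeR adjusted p = 3.22e-18). It rose less than LSS and EBP, and its 95% interval, 0.61 to 0.78, lay below theirs (1.16 to 1.30 and 1.22 to 1.42).

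Together the 8 genes took 723 ± 22.5 CPM in scramble and 911 ± 18.4 CPM in labelled knockdown (SD, n = 3). Levels of different genes can be compared only per length, here as CPM per kilobase of the union of GENCODE v29 basic exons, which may not match the authors' annotation. In scramble, FDFT1 had the highest level per length (41.9 ± 1.05), then DHCR7 (27.8 ± 1.49) and HMGCS1 (27.6 ± 0.813), which did not differ beyond their spread. INSIG1 (22.3 ± 0.579) and SREBF2 (22.2 ± 1.58) did not differ beyond their spread either, and EBP (19.8 ± 0.961), whose range overlapped that of SREBF2, LSS (17.7 ± 0.479) and SQLE (13.8 ± 0.599) followed. In labelled knockdown the order was EBP (49.6 ± 1.84), DHCR7 (44.9 ± 0.959), INSIG1 (42.5 ± 2.30), LSS (41.4 ± 1.13), SREBF2 (26.9 ± 0.310), FDFT1 (22.6 ± 0.486), HMGCS1 (20.3 ± 0.252) and SQLE (9.95 ± 0.368). There the libraries' ranges overlapped between DHCR7 and INSIG1 and between INSIG1 and LSS. FDFT1 thus moved from the top of the order to the sixth place and EBP from the sixth to the top, while SQLE was lowest in both groups.

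Ratios of read counts within a library do not depend on how libraries are scaled. LSS stood at 0.484, 0.490 and 0.506 reads per FDFT1 read in scramble and at 2.13, 2.15 and 2.14 in labelled knockdown, a shift of 2.12 on the log2 scale. EBP per FDFT1 read went from 0.183 ± 0.00465 to 0.847 ± 0.0141, DHCR7 per FDFT1 read from 0.386 ± 0.0111 to 1.15 ± 0.0270, and LSS per SQLE read from 2.31 ± 0.0602 to 7.54 ± 0.431 (SD, n = 3). These 4 pairs were chosen after the values were seen. Relative to SREBF2, HMGCS1 went from 0.822 ± 0.0762 to 0.496 ± 0.00780 and INSIG1 from 0.580 ± 0.0335 to 0.907 ± 0.0398. Of 13 ratios, 12 did not overlap between groups. The 12 include the 4 pairs chosen afterwards, each a gene that rose over one that fell, so their lack of overlap follows from the choice. No share over other gene pairs was computed, and 85.8% of single tested genes did not overlap. An exact two-sided permutation test with n = 3 per group gave each of the 12 p = 0.1 (Benjamini-Hochberg adjusted p = 0.108). That is the least this design can give, so it cannot reach 0.05 for a ratio.

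The paralogue pairs differed from each other in this respect. SREBF1 encodes SREBP-1, which is better known for fatty acid genes. SREBF1 had 54.3, 62.6 and 63.4 CPM in scramble and 158, 169 and 160.1 in labelled knockdown, a log2 fold change of 1.44 with an SE of 0.05 (edgeR adjusted p = 1.21e-25). SREBF2 reads per SREBF1 read were 2.01, 2.01 and 1.92 in scramble and 0.921, 0.859 and 0.889 in labelled knockdown, so SREBF2 had more reads of the pair in every scramble library and fewer in every labelled knockdown library. INSIG2, the other sterol-sensing retention protein, had 28.3, 25.3 and 29.7 CPM against 50.2, 49.6 and 51.6 (log2 fold change 0.86, SE 0.06, edgeR adjusted p = 6.34e-17). INSIG1 reads per INSIG2 read, 2.49 ± 0.275 and 2.60 ± 0.192, overlapped between groups (exact two-sided permutation p = 0.8, n = 3 per group).

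**Figure D2:**
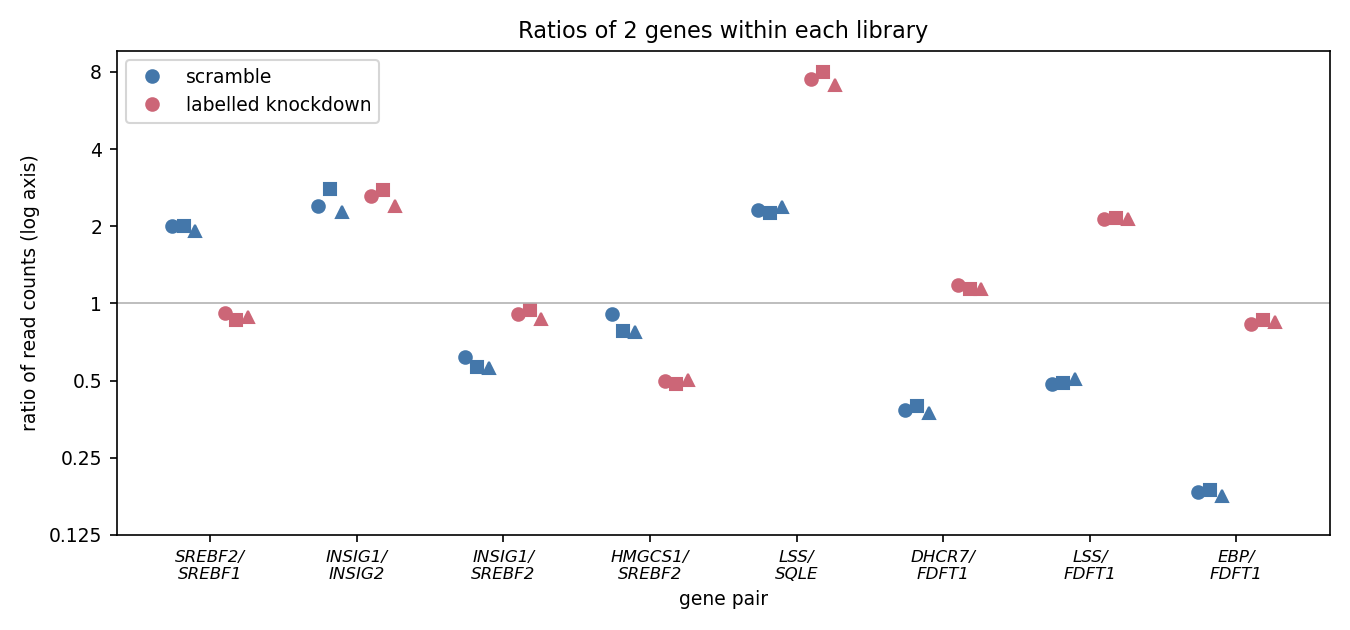
Ratio of the read counts of gene pairs within each library (vertical log axis) for scramble (blue) and labelled knockdown (red); circles, squares and triangles are replicates 1, 2 and 3. LSS per FDFT1 read lies near 0.493 in scramble and 2.14 in labelled knockdown, while INSIG1 per INSIG2 read overlaps.

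Other enzymes of the chain also moved in both directions. Of 15 further enzyme genes tested, 8 rose, 4 fell and 3 did not pass, and the median log2 fold change was 0.17, beside 43.4% of all tested genes higher and 42.5% lower. PMVK (1.54, SE 0.07) and MVK (0.76, SE 0.07), the kinases that phosphorylate mevalonate, rose. MVD (-0.39, SE 0.06), which decarboxylates the product, and FDPS (-0.11, SE 0.04), which makes farnesyl diphosphate, fell. IDI1, the isomerase between them, did not pass (0.02, SE 0.04). Past lanosterol, the demethylation enzymes NSDHL (0.94, SE 0.06) and MSMO1, listed as SC4MOL (0.82, SE 0.05), rose, as did CYP51A1 (0.17, SE 0.05) and the sterol reductase genes TM7SF2 (0.47, SE 0.11) and LBR (0.26, SE 0.03). HSD17B7 (0.24, SE 0.13) and the desaturase gene SC5D, listed as SC5DL (-0.04, SE 0.04), did not pass.

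Divided at ring closure, a division made after the values were seen, the chain's 21 enzyme genes, members included, fell apart by direction. Of 10 genes acting up to squalene epoxide, 7 fell, 2 rose (MVK and PMVK) and 1 did not pass, and their median log2 fold change was -0.34. Of 11 acting from lanosterol on, 9 rose, 0 fell and 2 did not pass, with a median of 0.47, beside 43.4% of all tested genes higher and 42.5% lower. The largest change of the 21 was the rise of PMVK (1.54), on the side where most genes fell. Against a 1.5-fold change (edgeR glmTreat), 1 of the 10 was lower, FDFT1, and MVK and PMVK were higher. The 10 thus did not lean lower at this threshold. Of the 11, 5 were higher, beside 24.3% of all tested genes higher and 21.6% lower at this threshold. Many of the changes were thus small.

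**Figure D3:**
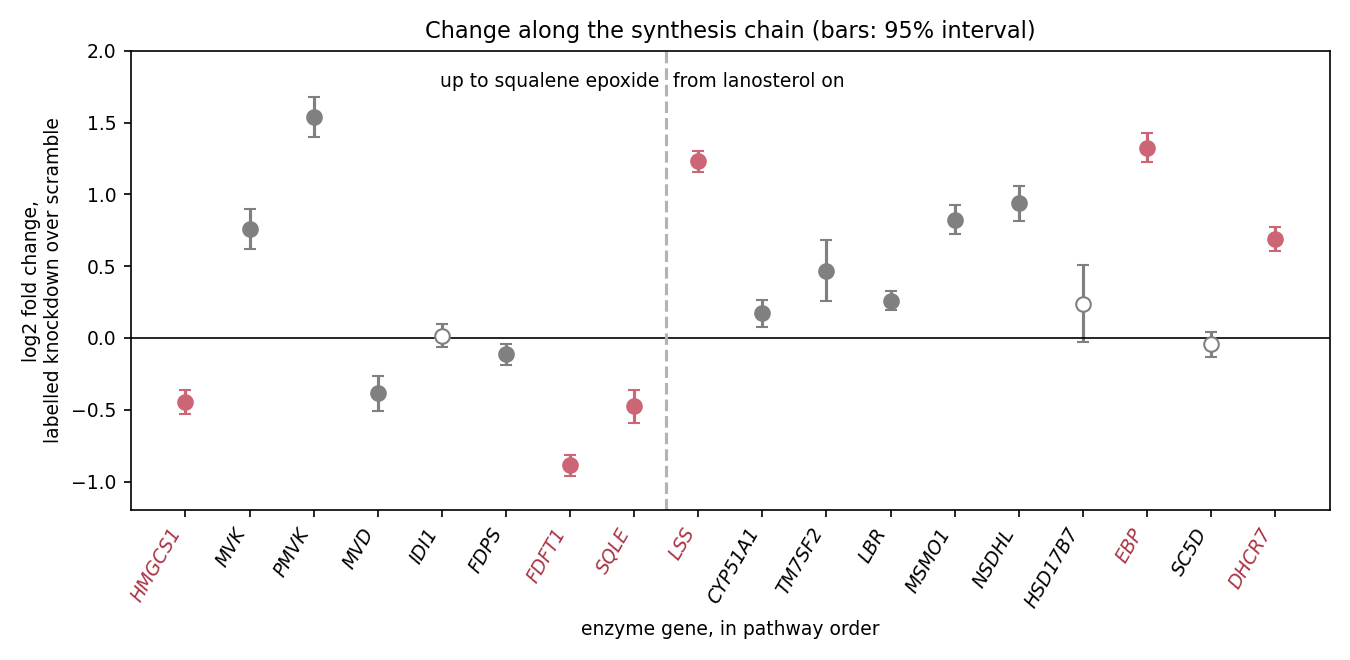
Log2 fold change (labelled knockdown over scramble; bars are 95% intervals of the edgeR fit on 3 against 3 libraries) of 18 enzyme genes in pathway order, members in red and others in grey; open circles did not pass an adjusted p of 0.05. HMGCS1, FDFT1 and SQLE lie below 0 left of the dashed line, and LSS, EBP and DHCR7 above 0 right of it. MVK and PMVK lie above 0 left of the line.

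Among 10 genes that sense sterol or process SREBPs, 6 rose, 3 fell and 1 did not pass, and the median was 0.17 on the log2 scale, with a range from -0.83, in a gene not named here, to 1.44. Over all tested genes 43.4% were higher and 42.5% lower. SCAP, the escort that INSIG proteins hold, rose (0.43, SE 0.04). MBTPS1 (0.10, SE 0.03) and MBTPS2 (0.23, SE 0.05), the proteases that release SREBPs in the Golgi, rose slightly. FAF2, which takes part in the degradation of INSIG proteins and other membrane proteins, fell (-0.47, SE 0.04).

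Uptake and lysosomal transport genes mostly rose: of 17 tested, 13 rose and 4 fell, with a median log2 fold change of 0.93. Over all tested genes the median was 0.01, with 43.4% higher and 42.5% lower. LRP1, a large endocytic receptor, went from 12.3 ± 0.939 to 85.0 ± 3.14 CPM (SD, n = 3), which is 2.78 on the log2 scale (SE 0.06). LIPA, the acid lipase that frees cholesterol from lipoprotein esters (1.21, SE 0.04), and NPC2 (1.12, SE 0.04) and NPC1 (0.98, SE 0.04), which hand it out of the lysosome, all rose. The 4 that fell were the sterol carriers STARD4 (-0.44, SE 0.05), OSBP (-0.32, SE 0.04) and GRAMD1B (-1.73, SE 0.13), and TMEM97 (-0.66, SE 0.05), an NPC1-binding protein. STARD4 and TMEM97 are known, like the 8 members, as genes that SREBP-2 can switch on.

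Efflux, storage and oxysterol genes had the widest spread. Of 10 tested, 7 rose, 1 fell and 2 did not pass, and the median was 0.81 on the log2 scale, beside 43.4% of all tested genes higher and 42.5% lower. ABCA1, the pump that loads cholesterol on apolipoproteins, had 1.77, 1.86 and 1.48 CPM in scramble and 89.3, 90.4 and 94.7 in labelled knockdown. Its log2 fold change was 5.74 with an SE of 0.08 (edgeR adjusted p = 8.26e-39). The enzymes that make oxysterols were low but higher in labelled knockdown: CYP27A1 went from 2.26 ± 0.193 to 9.50 ± 0.938 CPM, and CH25H had 6, 4 and 0 reads in scramble and 34, 35 and 40 in labelled knockdown. SOAT1, which esterifies cholesterol for storage, rose from 107 ± 3.86 to 213 ± 3.45 CPM (SD, n = 3), and NCEH1, which hydrolyses such esters, rose too (log2 fold change 0.62, SE 0.03). PLTP, a phospholipid transfer protein, fell (-0.80, SE 0.12). NR1H2, a gene of the oxysterol receptor LXR, rose slightly (0.11, SE 0.05), and NR1H3 (-0.22, SE 0.10) and APOE (-0.05, SE 0.33) did not pass.

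**Figure D4:**
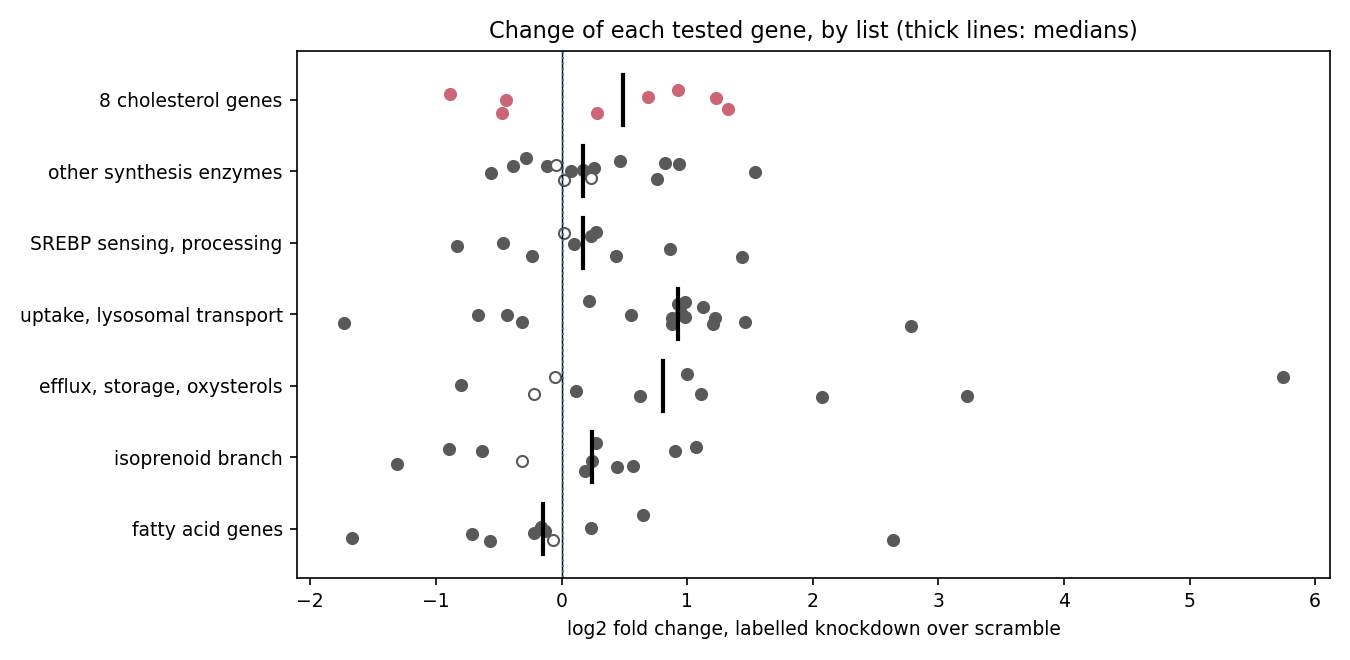
Log2 fold change (labelled knockdown over scramble) of every tested gene of the 8 members and 6 pathway lists; filled points passed an adjusted p of 0.05, open points did not, thick lines are list medians and the dotted line is the median of all tested genes (0.01). The 8 members lie on both sides of 0, and the uptake and efflux lists have the highest medians, 0.93 and 0.81.

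Some limits touch single members. In RefSeq's annotation, INSIG1, SREBF2, FDFT1, LSS and DHCR7 overlap noncoding genes, of which MIR33A in SREBF2 is the one the files list, with 0 reads; how HTSeq treated strand is not given in the sources used here, and reads of overlapping genes may not be told apart. The share of reads aligned to several places, 34.1% ± 0.106 in scramble and 29.4% ± 0.175 in labelled knockdown (SD, n = 3), also moved with the groups, and its part in the members' differences was not tested.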

How the data were processed

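Per the labels' protocols, polyadenylated RNA was made into stranded libraries and read as single reads of 50 bases. The submitters' processing notes name bcl2fastq, TopHat2 2.0.8b, HTSeq and build hg19. The authors deposited raw counts of reads per gene with no normalization. The 5 summary lines entered neither library sizes nor tests: reads aligned to several places (34.1% of scramble and 29.4% of labelled knockdown totals), in no gene (14.7% and 11.1%) and in more than 1 gene (0.537% and 0.593%). Samples were grouped by title.

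Counts were filtered with filterByExpr, scaled with TMM factors and fitted by group in edgeR 4.0.16 under R 4.3.3 (robust quasi-likelihood F test, two-sided, Benjamini-Hochberg over 13606 genes, threshold 0.05). The SE is the size of the log2 fold change over the square root of F. On simulated counts for these genes the fit recovered 62% of genes changed 1.2-fold, 90% at 1.5-fold and 100% at 2-fold and 4-fold, with 3.83% false calls. In the simulation 50 genes were changed at each fold, in random directions, and all genes shared a common spread between libraries. In the real libraries 85.9% of tested genes passed, so these rates need not hold there. Ratios had 0.5 reads added to each count for the log2 scale. Alternatives were other scalings (DESeq2's size factors, upper quartile, library totals) and filters, DESeq2 1.42.0, limma-voom (limma 3.58.1), a replicate block, each library left out, a test against 1.5-fold and a threshold of 0.01.

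The members and lists were chosen with earlier results of these data known. Named genes are the members, SCUBE3, paralogues, and up to 6 genes per list by adjusted p with those not passing. MVD, FDPS, CYP51A1, TM7SF2, MBTPS1, MBTPS2, NR1H2, PLTP and the 4 transport genes that fell were named after their values were seen. Some list genes are counted but not reported singly here. RefSeq synonyms matched MSMO1 and SC5D. Coordinates are RefSeq's on GRCh38.p14, used for flanks and neighbours only.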

Additional observations from a re-analysis of the deposited data

Results flagged for a closer look

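Reads that HTSeq assigned to more than 1 gene, which no comparison uses, made up 0.537% ± 0.00504 of the total in scramble and 0.593% ± 0.00441 in labelled knockdown (SD, n = 3), higher in all 3 labelled knockdown libraries than in any scramble library (exact two-sided permutation p = 0.1, n = 3 per group, the smallest possible).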

How the results depend on the processing

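All 8 members kept their direction under the 16 alternatives and stayed past an adjusted p of 0.05 in all of them except the test against a 1.5-fold change. Under that test (edgeR glmTreat), which asks for larger changes by construction, HMGCS1 (log2 fold change -0.44), SQLE (-0.48) and SREBF2 (0.28) no longer passed, each with an adjusted p of 1, which left 4 members higher and 1 lower. Over all genes this test called 3307 higher and 2944 lower in place of 5899 and 5782. These were 24.3% and 21.6% of all tested genes. It called 4 higher and 0 lower among other synthesis enzymes, 2 and 1 among SREBP sensing genes, and 11 and 2 among uptake genes. Among isoprenoid genes it called 2 higher in place of 7, and 2 lower. Among fatty acid genes it called 2 higher, and 2 lower in place of 6. The efflux list had 2 genes lower in place of 1 with no low-count filter, with the block, without scramble replicate 3 and without labelled knockdown replicate 3, and its median was 0.62 without a filter and 1.001 with a filter of 1 CPM in 3 libraries. Scaling moved the median of all genes by at most 0.05 (library totals). With the replicate number as a block, 5919 genes were higher and 5787 lower, and 5 members were higher and 3 lower. Same-numbered libraries deviated together with correlations of 0.08, 0.06 and -0.0019 across genes. Scramble replicates 1 and 2 were closest to their own numbers, and scramble replicate 3 to number 2. Correlations this weak cannot tell whether same-numbered libraries share a batch, and the labels name none. The depth of 728 to 5952 reads per member and library makes counting error small beside the differences described.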

Other observations

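Side branches of the pathway and the fatty acid genes moved both ways. In the isoprenoid branch, which takes farnesyl and geranylgeranyl units for protein prenylation, dolichol and ubiquinone, 7 of 11 tested genes rose, 3 fell and 1 did not pass, and the median was 0.24 on the log2 scale, beside 43.4% of all tested genes higher and 42.5% lower. Against a 1.5-fold change (edgeR glmTreat), 2 were higher and 2 lower, beside 24.3% of all tested genes higher and 21.6% lower. GGPS1, which makes geranylgeranyl diphosphate, rose (0.91, SE 0.07), as did RCE1, the protease that trims prenylated proteins (1.07, SE 0.07), and COQ2 of ubiquinone synthesis (0.57, SE 0.06). The 3 that fell were PGGT1B, a subunit of a protein prenyltransferase (-1.31, SE 0.07), PDSS1, which builds the ubiquinone side chain (-0.90, SE 0.07), and NUS1 of dolichol synthesis (-0.63, SE 0.06). FNTB did not pass (-0.31, SE 0.24).

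Of 10 fatty acid genes known as SREBP-1 targets, 6 fell, 3 rose and 1 did not pass, with log2 fold changes from -1.67 to 2.64, the latter in a gene not named here, and a median of -0.15, beside the same shares over all tested genes. Against a 1.5-fold change, 2 were lower and 2 higher, beside 21.6% of all tested genes lower and 24.3% higher. ACSL3, an acyl-CoA synthetase of lipid droplets, went from 408 ± 17.7 to 128 ± 4.49 CPM (SD, n = 3; log2 fold change -1.67, SE 0.04), and the desaturase genes FADS1 (-0.72, SE 0.03) and FADS2 (-0.57, SE 0.04) fell. ELOVL6, a fatty acid elongase (0.65, SE 0.04), and ACLY, which supplies acetyl-CoA to both pathways (0.23, SE 0.03), rose, and ACACA did not pass (-0.07, SE 0.03).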
